A study of Mus musculus with 6 samples.

Results

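The 10 genes described here encode proteins that sense or convert extracellular ATP, NAD and adenosine: P2rx7, P2rx4, P2ry10, Entpd1, Nt5e, Adora2a, Ada, Adk, Art2b and Cd38. They were taken by name, and each was read from a probe set that carries exactly 1 gene symbol. Of the 10 genes, 7 could be read this way, each from 1 probe set, among 22180 genes in all. Adora2a, Art2b and Cd38 were not analysed here.

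The arrays came from CD4 T cells of the lung of wild-type mice. The 3 HDM samples came from mice sensitised and challenged with house dust mite, whose allergens are used in mice to model allergic asthma, and the 3 PBS samples from mice given the saline vehicle in its place. Cells of digested lung were sorted as CD45+ CD4+ cells negative for CD11b and F4/80, which mark myeloid cells, and each sample was hybridised to 1 Affymetrix whole-transcript mouse gene array. The titles call the samples biological replicates 1 to 3, while the sources used here give no dose, age or number of mice per sample. The p-values therefore reflect only how far these samples vary among themselves.

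Cells that are damaged or activated release ATP, which opens P2X ion channels and acts on P2Y receptors. The surface enzyme CD39, encoded by Entpd1, degrades ATP and ADP to AMP, and CD73, encoded by Nt5e, turns AMP into adenosine, which dampens T cells through receptors coupled to cyclic AMP. Adenosine is removed by deamination (Ada) or by phosphorylation inside the cell (Adk), and in mouse T cells the surface enzyme encoded by Art2b uses extracellular NAD to activate the P2rx7 channel.

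The T cell identity list (8 of 9 genes tested) had a mean log2 signal of 11.94 to 12.08 in HDM arrays and 11.87 to 11.88 in PBS arrays. In this list 1 gene (Thy1) was called higher, where 2.39% of all genes were. With the replicate block, a fit that compares arrays of the same number, 3 were higher, where 5.95% of all genes were. Of the genes behind the sort gate, Cd4 (HDM minus PBS 0.15, log2), Ptprc (-0.07), Itgam (-0.02) and Adgre1 (0.39) were not called, with limma adjusted p of 0.294 or more. Both arrays numbered 3 stood apart from the others of their group. limma's array weights were 0.529 for HDM replicate 3 and 0.588 for PBS replicate 3, and between 1.14 and 1.86 for the other arrays.

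P2rx7 and Nt5e were the genes of this group whose transcripts were higher in HDM, by about the same factor, while the neighbouring channel gene P2rx4 had no change detectable with these arrays. The call of Nt5e held in all 17 alternative settings of the analysis, and that of P2rx7 was lost in 6 of them. Signals of both genes that deal with adenosine after it is formed, Ada and Adk, lay below PBS in HDM. HDM lay wholly below PBS for 11.8% of all genes, and neither Ada nor Adk passed the test without the block. For Ada the gap was 0.02, and it did not pass with the block either (limma adjusted p = 0.233). With limma on all 22180 genes and an adjusted p below 0.05, 2 of the 7 genes were higher, 0 lower, and 5 were not called. Of all genes, 2.39% were called higher, 1.56% lower and 3.95% in either direction. At an unadjusted p below 0.05, 3 of the 7 were higher and 2 lower, where 1923 and 2035 of all 22180 genes were. With the replicate block 3 of the 7 were higher and 2 lower, where 5.95% of all genes were higher and 6.01% lower. Without both arrays numbered 3, and with no block, the counts were also 3 higher and 2 lower. In that setting 1250 of all 22180 genes were higher and 1326 lower. The block added Entpd1 to the genes higher in HDM and P2ry10 and Adk to those lower. The median log2 difference was -0.0048 for the 7 genes and -0.0063 for all genes.

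**Figure D1:**
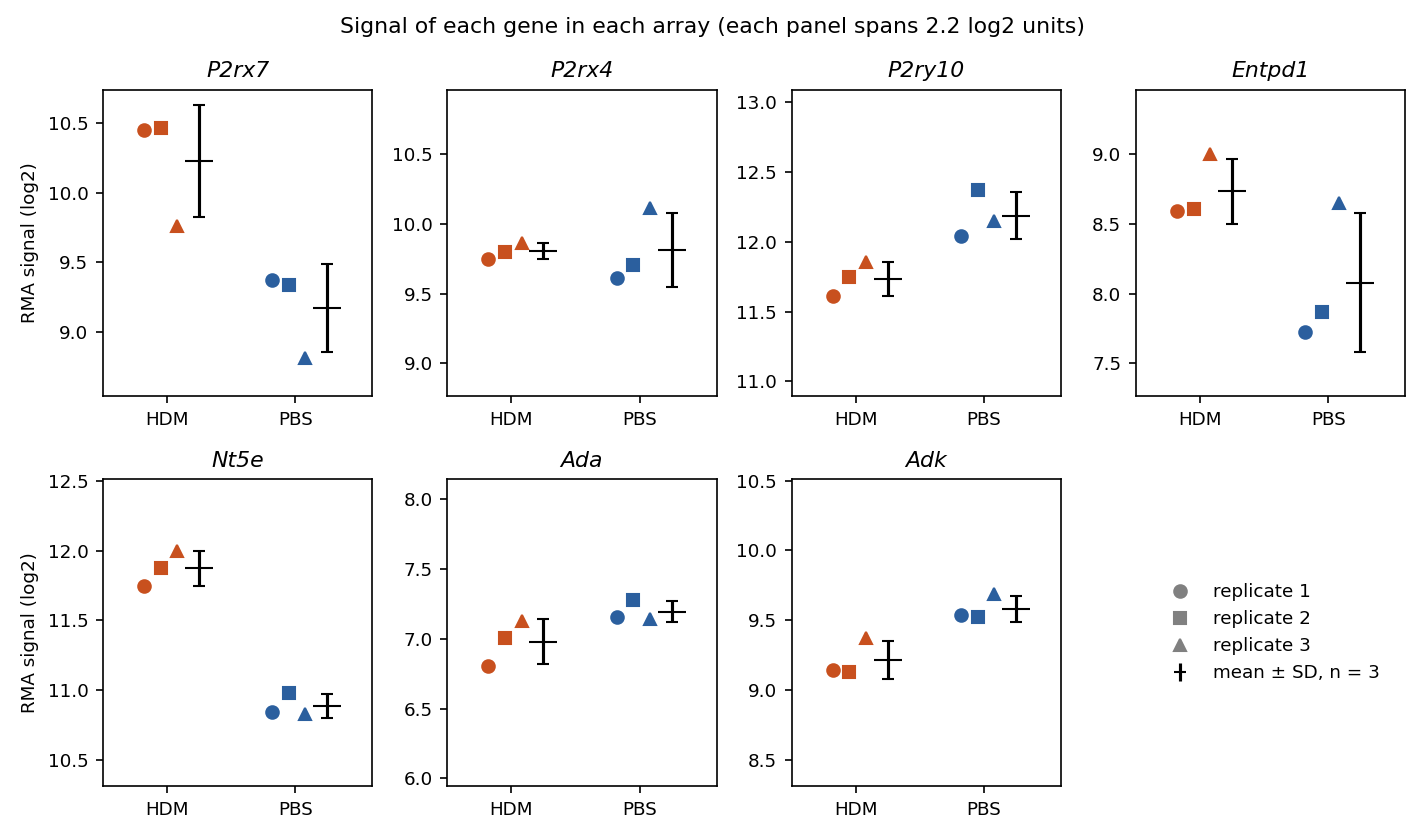
RMA signal (log2) of the 7 genes in the 3 HDM arrays (orange) and the 3 PBS arrays (blue), 1 panel per gene, with marker shape for the replicate number and bars for mean ± SD; every panel spans the same number of log2 units. HDM lay wholly above PBS for P2rx7 and Nt5e and wholly below it for P2ry10, Ada and Adk, and the groups overlapped for P2rx4 and Entpd1. Among all genes HDM lay wholly above PBS for 10.8% and wholly below it for 11.8%.

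The stretches just upstream of the annotated starts of Nt5e, P2rx7 and P2rx4 are shown because the first 2 genes were higher in HDM and the third, which lies next to P2rx7 on the same chromosome, was not called. All are from RefSeq on mouse build GRCm38.p6, plus strand. The Nt5e window is chr9:88327359-88327608, that of P2rx7 is chr5:122643677-122643926 (the more distal of 2 starts in the table) and that of P2rx4 is chr5:122707294-122707517. Capitals mark matches, on either strand, to the letters GGGCGG (SP1), TGANTCA (AP-1) and GATAA (GATA).
Nt5e: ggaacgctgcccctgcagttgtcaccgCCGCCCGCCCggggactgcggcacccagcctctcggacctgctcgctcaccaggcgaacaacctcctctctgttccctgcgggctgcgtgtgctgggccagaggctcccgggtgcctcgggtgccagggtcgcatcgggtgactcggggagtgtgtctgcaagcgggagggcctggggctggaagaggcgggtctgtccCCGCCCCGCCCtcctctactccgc
P2rx7: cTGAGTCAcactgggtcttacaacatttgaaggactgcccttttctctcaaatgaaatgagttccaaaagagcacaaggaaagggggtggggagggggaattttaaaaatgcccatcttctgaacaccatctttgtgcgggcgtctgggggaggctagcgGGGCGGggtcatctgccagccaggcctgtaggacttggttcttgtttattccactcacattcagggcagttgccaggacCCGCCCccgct
P2rx4: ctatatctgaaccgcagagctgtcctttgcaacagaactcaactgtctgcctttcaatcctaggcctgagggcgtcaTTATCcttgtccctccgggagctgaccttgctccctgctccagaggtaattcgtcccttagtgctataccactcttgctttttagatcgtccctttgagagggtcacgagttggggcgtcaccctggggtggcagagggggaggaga
The Nt5e window, with a GC content of 72.0%, held 4 matches to GGGCGG, in 2 overlapping pairs, and none to the other 5 motifs searched. The P2rx7 window (53.6% GC) held 2 matches to GGGCGG and 1 to TGANTCA, which began 249 bases before the start. The P2rx4 window (54.5% GC, 224 bases) held 1 match to GATAA. None of the 3 windows held ACGTG (HIF), GGAAAA (NFAT) or TGTGGT (RUNX). Among 32851 windows of 250 bases before annotated starts, 32.7% held GGGCGG, 22.6% GATAA, 20.4% GGAAAA, 16.6% ACGTG, 14.05% TGTGGT and 6.75% TGANTCA. These matches describe letters in the window and show nothing about binding. Promoter entries were found for 9 of the 10 genes.

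P2rx7 encodes the ATP-gated channel P2X7, whose prolonged opening by ATP can kill T cells. Its log2 signal was 10.45, 10.47 and 9.76 in HDM replicates 1, 2 and 3, against 9.37, 9.34 and 8.81 in PBS replicates 1, 2 and 3. All HDM values lay above all PBS values, and in both groups the array numbered 3 was the lowest. The mean was 10.23 ± 0.40 in HDM and 9.18 ± 0.32 in PBS (SD, n = 3 each), a 2.07-fold higher signal in HDM (log2 difference 1.05 ± 0.22 SE, limma adjusted p = 0.0436). The arrays of the same number differed by 1.08, 1.12 and 0.95, with an SD of 0.09 between these differences, which is smaller than the SD within either group. With the block the SE was 0.07 (limma adjusted p = 0.000473). Without the block, the call held without HDM replicate 3 (1.28, adjusted p = 0.00593) but was lost without each of the other 5 arrays, with differences of 0.87 to 1.15 and adjusted p of 0.0818 (without PBS replicate 3) to 0.17 (without HDM replicate 2). It was also lost with each array centred on its median (1.05, adjusted p = 0.0558).

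P2rx4 encodes another ATP-gated channel and starts 15181 bases beyond the end of P2rx7 in the RefSeq annotation of GRCm38.p6. Its log2 signal was 9.75, 9.80 and 9.86 in HDM and 9.61, 9.70 and 10.11 in PBS, for replicates 1, 2 and 3. The groups overlapped, and the highest value of all was that of PBS replicate 3. The difference was -0.0048 (SE 0.13, adjusted p = 0.991), with a 95% interval from -0.32 to 0.31, so a change of the size seen for P2rx7 lies outside it. Its sign turned in 5 of the alternatives, and without PBS replicate 3 the difference was 0.15 (adjusted p = 0.484).

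The changes of the 2 channel genes were compared within arrays. The change of P2rx7 exceeded that of P2rx4 by 1.06 on the log2 scale, and by 0.94, 1.03 and 1.20 between arrays numbered 1, 2 and 3. The exact two-sided permutation p was 0.1 (n = 3 each), the smallest that 3 arrays against 3 allow, and 0.2 after adjustment over the 2 pairs of genes compared. The change of Nt5e exceeded that of Entpd1 by 0.33, with overlapping groups (exact permutation p = 0.4, 0.4 after adjustment).

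P2ry10 encodes a receptor of lymphocytes named with the P2Y family, for which lysophosphatidylserine has been reported as a ligand. Its log2 signal was 11.61, 11.75 and 11.85 in HDM replicates 1, 2 and 3, against 12.04, 12.37 and 12.15 in the PBS replicates. Every HDM value lay below every PBS value, with a gap of 0.18 between the groups. The difference of -0.45 (SE 0.10, 95% interval -0.69 to -0.21) missed the threshold (limma adjusted p = 0.0545) and passed it with the replicate block (adjusted p = 0.00825). Leaving out HDM replicate 3 also carried it past the threshold (-0.51, adjusted p = 0.0332), as did a filter on dim genes, median centring and array weights. P2ry10b, a related receptor gene picked after its values were seen, differed by -0.51 (SE 0.14, adjusted p = 0.106, 0.0295 with the block). Whether probes of either gene also bind the other transcript was not tested.

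Nt5e, the gene of CD73, which makes adenosine from AMP, had the smallest SE relative to its change among the 7 genes without the block (0.09 for 0.99). With the block that of P2rx7 (0.07 for 1.05) was slightly smaller than that of Nt5e (0.07 for 0.99). The log2 signal of Nt5e was 11.75, 11.88 and 11.997 in HDM replicates 1, 2 and 3 and 10.85, 10.98 and 10.83 in the PBS replicates. The groups were 0.76 apart at their nearest values. The mean was 11.87 ± 0.13 in HDM and 10.88 ± 0.08 in PBS (SD, n = 3 each), so the signal was 1.98-fold higher in HDM (0.99 ± 0.09 SE, 95% interval 0.79 to 1.19, limma adjusted p = 0.00245). With any single array left out the difference lay between 0.93 and 1.05, with adjusted p of 0.00164 to 0.0189. By the absolute size of their differences, Nt5e stood at percentile 98.8 of all genes and P2rx7 at percentile 99.1.

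Entpd1 encodes CD39, the enzyme that acts before CD73, and it is known from regulatory T cells, B cells and myeloid cells. Its log2 signal was 8.59, 8.61 and 9.004 in HDM and 7.72, 7.87 and 8.65 in PBS, for replicates 1, 2 and 3. The groups overlapped by 0.06 because PBS replicate 3 lay above 2 of the HDM arrays. The difference of 0.66 (SE 0.24, 95% interval 0.10 to 1.21) did not pass (limma adjusted p = 0.199). Within numbers it was 0.87, 0.75 and 0.35, and it passed with the block (adjusted p = 0.0118). Without PBS replicate 3 it was 0.94 (adjusted p = 0.0259) and without both arrays numbered 3 it was 0.81 (adjusted p = 0.00225).

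Levels of marker genes of other cells are set beside these values, and their part in the result was not tested. The neutrophil list averaged 5.95, 6.13 and 6.63 in HDM replicates 1, 2 and 3 and 5.94, 5.99 and 6.92 in the PBS replicates. The arrays numbered 3 were thus the highest of each group, as they were for P2rx4, Entpd1 and Adk. They were also the highest for the B cell, natural killer cell, mast cell and basophil, endothelial and fibroblast lists. For the other marker lists this did not hold in both groups. Within the neutrophil list, S100a9 and Ly6g were not highest in HDM replicate 3. Cd79a, a B cell receptor component, was 9.38 in HDM replicate 3 and 8.502 in PBS replicate 3, against 6.97 to 7.86 in the other 4 arrays. The macrophage and monocyte list averaged 8.18 to 8.60 in HDM and 7.96 to 8.13 in PBS, and 1 of its 10 genes was higher (Chil3, 2.11 ± 0.38 SE, adjusted p = 0.0248), 2 with the block (Csf1r added, adjusted p = 0.0488). The dendritic cell list averaged 7.76 to 7.95 in HDM and 7.56 to 7.74 in PBS, with 1 of 5 genes higher (Itgax). Beside the macrophage and dendritic cell counts, the share higher over all genes was 2.39%, and 5.95% with the block. The 34 tested genes of the CD8 T cell, B cell, neutrophil, eosinophil, mast cell and basophil, epithelial and fibroblast lists gave 0 limma calls. At an unadjusted p below 0.05, 1 was higher and 1 lower, where 1923 and 2035 of all 22180 genes were. With the block 0 were higher and 4 lower, where 5.95% and 6.01% of all genes were. Of the natural killer cell list 2 of 6 genes, Gzma (-1.63) and Klrd1 (-1.21), were lower with or without the block. Of all genes, 6.01% were lower with the block and 1.56% without it. Ncr1 (-0.13), Klrb1c (-0.12), Klrk1 (-0.28) and Eomes (-0.02) were not called in either fit. Of the endothelial list 1 of 5 was lower (Pecam1). With the block 4 of 5 were, which added Cdh5 (-0.90, block adjusted p = 0.00979), Kdr (-0.57, 0.0235) and Tek (-1.06, 0.0163). Pecam1 varied less within groups (SD 0.13 in HDM, 0.03 in PBS) than Cdh5, Kdr, Cldn5 and Tek. Their SDs were 0.48 to 1.03 in HDM and 0.55 to 1.02 in PBS. Which cells the Pecam1 signal came from was not tested. The endothelial list averaged 7.53 to 8.82 in HDM and 8.10 to 9.24 in PBS, and its part in the P2rx7, Nt5e and Entpd1 values was not tested.

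Markers of T cell subsets differed between HDM and PBS as well. Of 8 genes of regulatory T cells, 4 were higher in HDM (Foxp3, Il2ra, Ikzf2 and Itgae), where 2.39% of all genes were. With the block 6 were higher, Ctla4 and Ikzf4 being added, where 5.95% of all genes were. Itgae had the largest difference (2.50). Tnfrsf18 (0.07, limma adjusted p = 0.863) and Lrrc32 (-0.33, 0.632) were not called in either fit. The list averaged 10.57 to 10.82 in HDM against 9.70 to 9.98 in PBS. Foxp3 was 11.60, 11.68 and 11.85 in HDM and 11.00, 10.97 and 10.67 in PBS. Of 6 naive T cell genes tested, 5 were lower, where 1.56% of all genes were, and 6 with the block, which added Il7r and called 6.01% of all genes lower. The naive list averaged 11.19 to 11.44 in HDM against 11.97 to 12.10 in PBS. In sorted bulk cells a change in the share of a cell type and a change in RNA per cell cannot be told apart, and the part of these subsets in the P2rx7, Nt5e and Entpd1 values was not tested.

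Ada encodes adenosine deaminase, which converts adenosine to inosine. Its log2 signal was 6.81, 7.01 and 7.13 in HDM replicates 1, 2 and 3 and 7.16, 7.28 and 7.15 in the PBS replicates. The HDM values lay below the PBS values with a gap of only 0.02, and the difference of -0.22 (SE 0.11, 95% interval -0.47 to 0.04) did not pass (limma adjusted p = 0.365, 0.233 with the block).

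Adk encodes adenosine kinase, which returns adenosine to AMP. Its signal was 9.14, 9.13 and 9.37 in HDM and 9.54, 9.52 and 9.69 in PBS (log2). Arrays of the same number differed by -0.39, -0.39 and -0.32, the narrowest range of the 7 genes, with an SD of 0.04. The difference of -0.37 (SE 0.10, 95% interval -0.61 to -0.13) did not pass without the block (limma adjusted p = 0.105) and was lower with it (adjusted p = 0.0177). Without HDM replicate 3 it passed as well (-0.44, adjusted p = 0.0385). The groups did not overlap for 5 of the 7 genes, 2 with HDM above and 3 with HDM below. Among all genes this was seen for 22.6%, with HDM above for 10.8% and below for 11.8%.

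**Figure D2:**
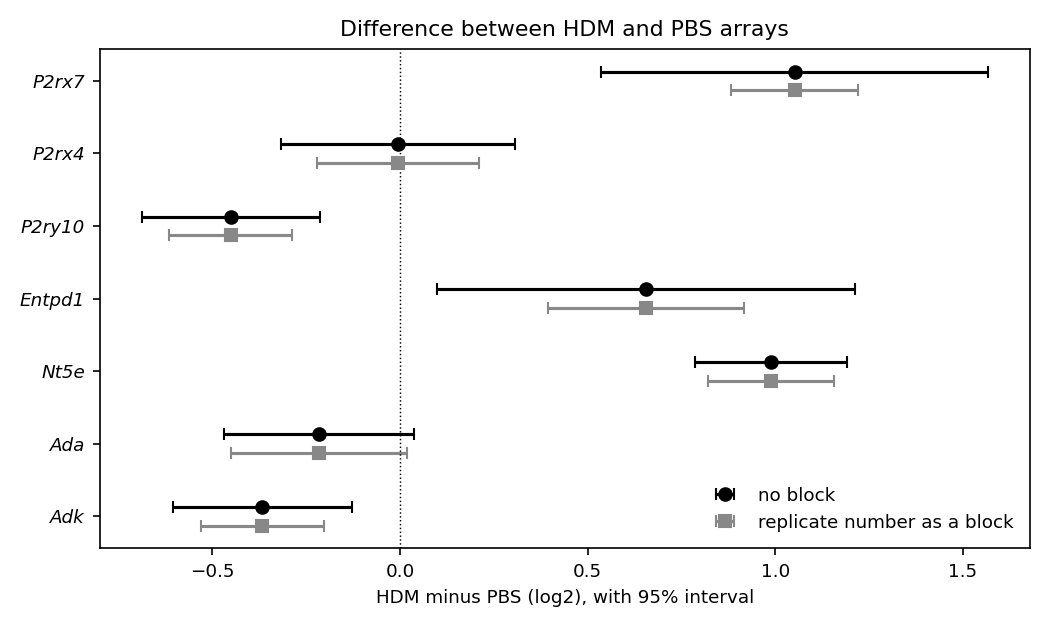
Difference between HDM and PBS arrays (log2) for the 7 genes with 95% intervals from limma, without a block (black circles) and with the replicate number as a block (grey squares). The interval of P2rx7 is 0.54 to 1.57 without the block and 0.88 to 1.22 with it, and that of P2rx4 spans 0 in both fits.

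**Figure D3:**
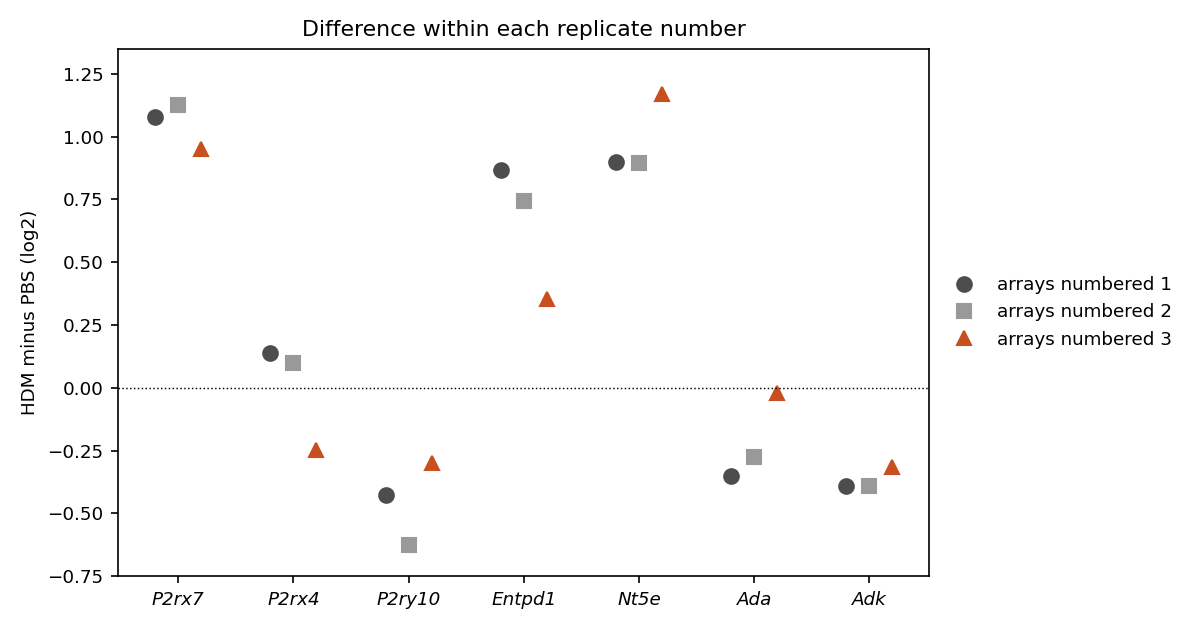
HDM minus PBS difference (log2) of the 7 genes for the arrays numbered 1 (circles), 2 (squares) and 3 (triangles). P2rx7, Nt5e and Entpd1 lie above 0 at each number and P2ry10, Ada and Adk below it, while P2rx4 has both signs.

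Most genes of the wider pathway were not called. In 8 lists of other genes of nucleotide and adenosine handling, 88 of 97 genes were tested, of which 5 were higher, 2 lower and 81 not called, and 11 were higher and 9 lower with the replicate block. The 7 calls are 7.95% of the 88 genes, where 3.95% of all genes were called. At an unadjusted p below 0.05, 14 of the 88 were higher and 12 lower, where 1923 and 2035 of all 22180 genes were. With the block the shares were 12.5% higher and 10.2% lower, where 5.95% and 6.01% of all genes were. Their median log2 difference was -0.02, against -0.0063 over all genes.

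None of the 13 other P2X and P2Y receptor genes was called with limma, and 1 was higher and 1 lower both with the block and at an unadjusted p below 0.05. Over all 22180 genes, the block gave 5.95% higher and 6.01% lower, and 1923 and 2035 were so at that unadjusted p. P2ry1, an ADP receptor, had the largest difference, 0.63 (SE 0.33, adjusted p = 0.377), with 8.70, 8.21 and 7.23 in HDM against 7.47, 7.55 and 7.23 in PBS. HDM replicate 3 stood at the PBS level for this gene, and without that array the difference was 1.04 (adjusted p = 0.0127). Adora3, the single other adenosine receptor gene tested of 3 listed, differed by 0.08 (SE 0.09, adjusted p = 0.745).

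Of 8 other ectonucleotidase and related genes tested, 1 was higher, where 2.39% of all genes were. Entpd7, a nucleoside triphosphate diphosphohydrolase located inside the cell, had log2 signals of 8.66, 8.58 and 8.54 in HDM and 8.13, 7.92 and 7.86 in PBS. The HDM values were all above the PBS values (0.62 ± 0.10 SE, adjusted p = 0.0192), and the call was lost without HDM replicate 1, HDM replicate 2 or PBS replicate 2 (adjusted p of up to 0.105). None of the 15 genes of adenosine transport and salvage was called with limma, against 2 higher and 4 lower at an unadjusted p below 0.05, and with the block 1 was higher and 2 lower. The largest difference there was that of Ampd1, an AMP deaminase (-0.48, SE 0.16, adjusted p = 0.161). The 15 NAD and cyclic ADP-ribose genes also gave 0 calls with limma, 2 higher and 1 lower at an unadjusted p below 0.05, and 1 higher with the block. Over all 22180 genes, 1923 were higher and 2035 lower at that unadjusted p. With the block the shares over all genes were 5.95% and 6.01%. Bst1, a relative of Cd38 that also uses NAD, differed by 0.53 (SE 0.19, adjusted p = 0.18, 0.0301 with the block).

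Among 8 genes of ATP release, 1 was higher, where 2.39% of all genes were. With the block 1 was higher and 2 lower, where 5.95% and 6.01% of all genes were. The block added Lrrc8a (-0.40, block adjusted p = 0.0121), a subunit of volume-regulated anion channels, and Slc17a9 (-0.39, 0.0285), the vesicular nucleotide transporter. Calhm2, of the calcium homeostasis modulator family of channels, rose by 0.60 (SE 0.12, adjusted p = 0.0332). Among 11 genes linked to the effects of P2rx7, 2 were higher and 0 lower with limma, where 2.39% and 1.56% of all genes were. At an unadjusted p below 0.05, 3 were higher and 1 lower, where 1923 and 2035 of all 22180 genes were. With the block 3 were higher and 0 lower, Adam10, a protease that sheds surface proteins, being added (0.29, block adjusted p = 0.0305). Casp1, the inflammasome protease, had log2 signals of 8.97, 9.28 and 8.59 in HDM and 8.11, 8.13 and 8.02 in PBS, a 1.82-fold difference (0.86 ± 0.17 SE, adjusted p = 0.0331). Mlkl, the executor of necroptosis, rose by 0.45 (SE 0.09, adjusted p = 0.0371). The calls of Calhm2 and Casp1 held without HDM replicate 3 and were lost without each of the other 5 arrays (adjusted p up to 0.129 for both), and that of Mlkl was lost without each of the 6 arrays (0.0506 to 0.143).

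Of the 8 lists, that of cyclic AMP signalling held the largest changes in both directions. Of 17 genes tested, 1 was higher and 2 lower, where 2.39% and 1.56% of all genes were. With the block 3 were higher and 4 lower, where 5.95% and 6.01% of all genes were. All 3 genes called without the block encode phosphodiesterases, which degrade cyclic nucleotides. The other phosphodiesterase genes of the list, Pde4b (-0.10), Pde4d (-0.21) and Pde7a (-0.25), were not called in either fit. Pde4a, specific for cyclic AMP, was 8.40, 8.26 and 7.94 in HDM and 6.93, 6.88 and 7.03 in PBS, 2.38-fold higher in HDM (1.25 ± 0.13 SE, limma adjusted p = 0.00404). Pde3b, an enzyme inhibited by cyclic GMP, was 10.76, 10.62 and 10.87 in HDM and 11.57, 11.55 and 11.78 in PBS (-0.88 ± 0.10 SE, adjusted p = 0.00417). Pde2a, an enzyme stimulated by cyclic GMP, was 9.66, 9.64 and 10.003 in HDM and 10.62, 10.54 and 10.64 in PBS (-0.83 ± 0.11 SE, adjusted p = 0.00916). The HDM and PBS values of each of these 3 genes were more than 0.5 log2 units apart. Pde4a and Pde3b kept the call with any single array left out, and Pde2a lost it narrowly without HDM replicate 2, PBS replicate 1 or PBS replicate 2 (adjusted p of up to 0.0511).

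**Figure D4:**
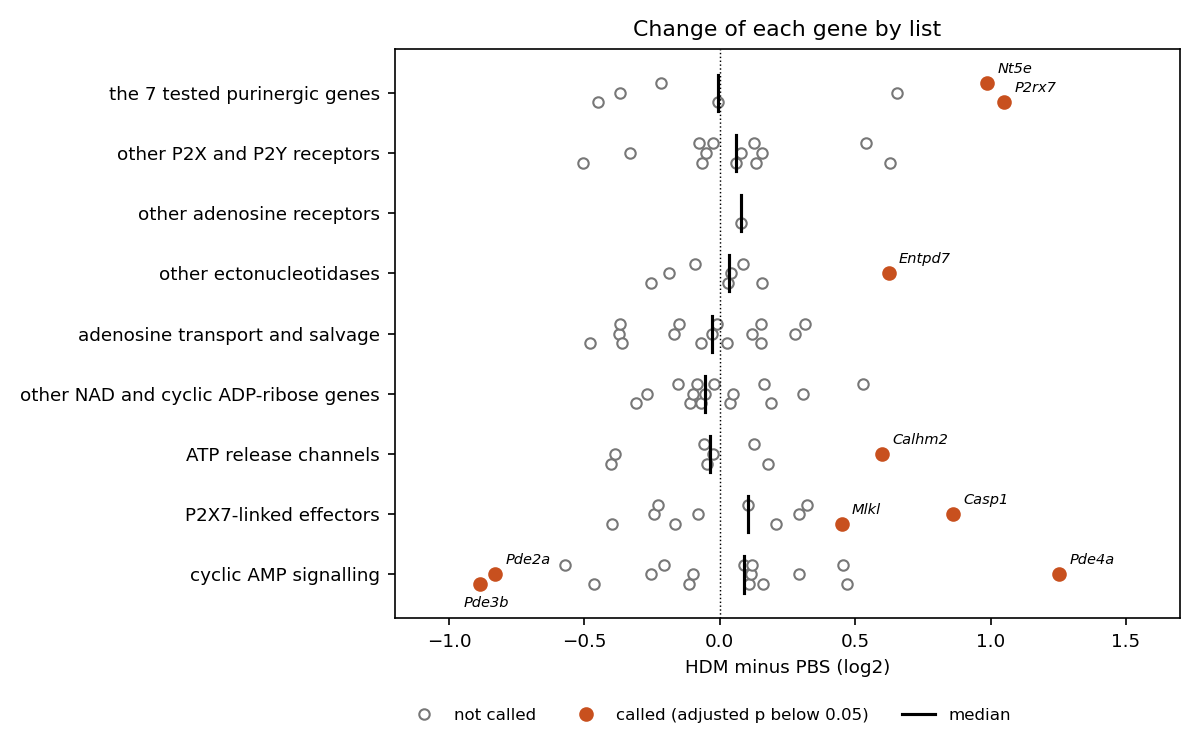
HDM minus PBS difference (log2) of each tested gene, by list, with called genes filled and named and a vertical bar at each list's median. P2rx7 and Nt5e lie near 1, Pde4a is the farthest to the right and Pde3b the farthest to the left, and the list medians lie close to 0.

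The genes whose profiles over the 6 arrays lay closest to those of P2rx7 and Nt5e were found by the root mean square difference between values centred on each gene's mean. Choosing genes this way fixes their HDM minus PBS difference near that of P2rx7 or Nt5e, so the values given here describe them and are no test. Kcna3, a potassium channel known from effector memory T cells, was closest to P2rx7 (0.08 log2 units), followed by Bmp7 (0.08), a secreted ligand of the TGF-beta family, and Akr1e1 (0.10), an aldo-keto reductase. Kcna3 and Bmp7 differed by 1.05 each, and Akr1e1 by 0.94. Closest to Nt5e were Syne3 (0.07), a nuclear envelope protein, Ebi3 (0.08), a cytokine subunit that regulatory T cells use, and Plin2 (0.08), a lipid droplet protein. Their differences were 0.92, 1.01 and 1.04. Ebi3 has 2 probe sets, and their mean differed by 0.43.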

How the data were processed

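RNA of 6 samples, 3 HDM and 3 PBS, was measured on 1 array each. The deposited values are log2 signals per probe set that the authors made with RMA (background correction, quantile normalization and probe set summary), per the submitters' processing notes, which give no version. Values lay between 2.95 and 14.1, with array medians from 6.57 to 6.64. RMA gives arrays nearly equal distributions, so a change in total RNA cannot be seen, and signals of different probe sets are not comparable in level. Detection calls and scan batches are not given in the sources used here, and the number of arrays limits the precision.

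Of 33960 probe sets, 23521 had exactly 1 gene symbol in the platform annotation, 1814 had several and 8625 had none here. The brightest by mean over the 6 arrays was kept for the 1082 genes with more than 1, giving 22180 genes. HDM minus PBS was tested two-sided with limma 3.58.1 in R 4.3.3 (lmFit and eBayes with an intensity trend), with Benjamini-Hochberg adjustment over all 22180 genes and a threshold of 0.05, and SEs come from limma's moderated variance. The fit was tested on simulated data. Any 2 arrays shared at most 5 identical values.

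What the replicate numbers mean is not stated in the labels. After subtracting group means, the HDM and PBS arrays with the same number correlated across genes (0.43, 0.17 and 0.53 for numbers 1, 2 and 3), above the minimum of 0.1 set for pairing. HDM replicate 2 correlated more with PBS replicate 1 (0.25) than with PBS replicate 2. Blocked counts are printed for each list whose counts the block alters. Once the group mean is subtracted, the 3 values of a group depend on one another, and both arrays numbered 3 stood apart. The 3 correlations are therefore not separate supports, and they cannot show whether the samples were paired. The pairing rests on the data, not on the labels.

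The genes and lists were chosen with earlier results of these data known. Named were the 10 genes, the gate genes, up to 4 called genes of each pathway list (or the 1 with the largest difference) and the 3 nearest profiles of each called gene, leaving out predicted genes and small RNAs. Marker genes, and genes called with the block alone, were named after their values were seen. Alternatives were filters on dim genes, normalization, variance model, array weights, the probe set per gene, the block and left-out arrays.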

Additional observations from a re-analysis of the deposited data

How the results depend on the processing

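The calls of the 7 genes depended on the setting. Higher in HDM were 2 genes, and 1 with each array centred on its median, where P2rx7 was lost. Lower were 0, but 1 (P2ry10) with genes at or above the 25th percentile or the median of mean signal and with median centring, and 2 (P2ry10 and Adk) under array weights, under the replicate block and when both arrays numbered 3 were dropped. Leaving out 1 array gave 1 to 2 genes higher and 0 to 2 lower. Nt5e passed in all 17 alternatives, and Ada and P2rx4 in none. P2rx4 had a difference of -0.10 without PBS replicate 1 and turned sign to 0.0192 with repeated quantile normalization, 0.0543 with array weights, 0.0229 without HDM replicate 1, 0.15 without PBS replicate 3 and 0.12 without both arrays numbered 3.

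Over all genes, 531 were higher and 345 lower. Array weights gave 914 and 923, the replicate block 1319 and 1334, leaving out both arrays numbered 3 gave 1250 and 1326, and the filter at the median gave 557 lower. Leaving out 1 array gave 177 to 845 higher and 41 to 722 lower. The cause of these shifts was not tested. Background correction could not be varied without scanner files. With 3 arrays per group and no detection call, a dim gene's small change may go unseen.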
